A study of Mus musculus with 24 samples.

Results

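Potassium channel genes are described here in sorted dermal papilla (DP) cells of control mice and of mice in which the histone deacetylases Hdac1 and Hdac2 were targeted in the DP. The members were all genes whose symbol is Kcn, 1 or more lower-case letters and a number, which took 92 of the 25755 genes of the deposited tables and used no measured value. They comprised 30 pore-forming voltage-gated subunits, 10 silent voltage-gated subunits, 15 accessory subunits, 15 inward rectifiers, 14 two-pore-domain leak channels and 8 calcium- or sodium-activated channels, from 20 subfamilies. RNA was sequenced from 3 control and 3 double mutant (dM1/2) mice at each of 4 ages: P20, the telogen (rest) of the first hair cycle, P24 and P28, the early and middle anagen (growth) of the second cycle, and P60, the telogen that follows, which gave 24 libraries. Double mutants carried Cor-cre/+ with Hdac1 and Hdac2 both homozygous for the floxed allele. Controls also carried Cor-cre/+, together with 1 to 3 floxed alleles of Hdac1 and Hdac2 in any of several combinations, and the labels do not give the combination of each control. Corin-cre is active in the DP, and the cells were sorted for a YFP reporter in 2 rounds. According to the study's methods, P20 mice were females and anagen mice were males, while either sex was used for the second telogen, so that sex and stage cannot be told apart between the ages.

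Potassium channels let potassium leave or enter a cell along its gradient and so set the membrane potential. Voltage-gated members open on depolarisation and repolarise excitable cells, two-pore-domain members leak potassium at rest, inward rectifiers hold the resting potential, and calcium-activated members couple it to calcium. Silent subunits form no channel alone and assemble with other voltage-gated subunits. In the hair follicle, ATP-sensitive potassium channels are known as the target of minoxidil, a drug that promotes hair growth. The DP is the mesenchymal cluster at the base of the follicle that signals to the epithelium.

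The values are normalized reads, that is, the read count of a gene over its library's size factor. Reads on genes per library ranged from 11635062 to 13369732 at P20, 35469841 to 49331751 at P24, 37171260 to 48331795 at P28 and 8171944 to 9724000 at P60, so that a gene with few reads was measured better in anagen. Hdac1 had 675, 668 and 668 normalized reads in the P24 controls and 209, 188 and 116 in the P24 dM1/2 libraries, and fell by 2.01 on the log2 scale (limma, adjusted p = 0.00167). The groups of Hdac1 overlapped at P28, with 214, 529 and 105 in controls and 190.2, 149 and 126 in dM1/2, so that the library labelled P28 control 3 lay below every mutant. Hdac2 had 1077, 968 and 1117 in P28 controls and 1091, 1223 and 1209.6 in dM1/2 and was called at none of the 4 ages (lowest adjusted p = 0.117, limma). Gene counts do not separate the floxed exons from the rest. Corin, a DP marker, had 41112, 30326 and 75255 normalized reads in the P28 controls, the highest of them in control 3, and 4581, 4009 and 5005 in dM1/2. Among markers of other cells, the 6 genes of the other-fibroblast list summed to between 22491 and 93852 normalized reads in the P28 controls and between 24087 and 31868 in dM1/2. The 6 neuronal genes summed to between 50.4 and 137 in P28 controls and between 255 and 674 in dM1/2, and Stmn2 was the 1 of them that was called (log2 fold change 2.86, adjusted p = 0.00792, limma), while Snap25 had at most 15.9. In the Schwann cell list, Sox10 had at most 1.92 normalized reads at P28, and 2 genes were lower at P24 and 1 at P28. Of the 16 DP markers 2 were higher and 7 lower at P24, and 5 higher and 4 lower at P28. At P24, 2 keratinocyte, 1 endothelial and 1 immune marker were lower, and at P28 1 smooth muscle and pericyte marker was higher and 1 other-fibroblast marker lower, while no melanocyte or skeletal muscle marker was called at either age. The part of these cells in the results below was not tested, and in bulk RNA fewer cells of a type cannot be told apart from less RNA per cell.

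Of the 92 members, 90 had a read in some library and 2, Kcna10 and Kcnk9, had none. A member was tested at an age if it averaged 10 or more normalized reads there, which 63 members did at 1 or more ages, 41 of them at all 4 ages. The 29 that were never tested had a mean of at most 9.38 at every age, among them Kcnj11, Kcnn4 and Kcnip2. Levels between genes were compared as normalized reads per kilobase of exon. In the 12 controls the 12 highest mean levels included, in order, those of Kcnj8, Kcne4, Kcnk6, Kcnq3, Kcnk5, Kcnn3, Kcnc4, Kcnab2, Kcnd1, Kcng2 and Kcnd2.

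**Figure D1:**
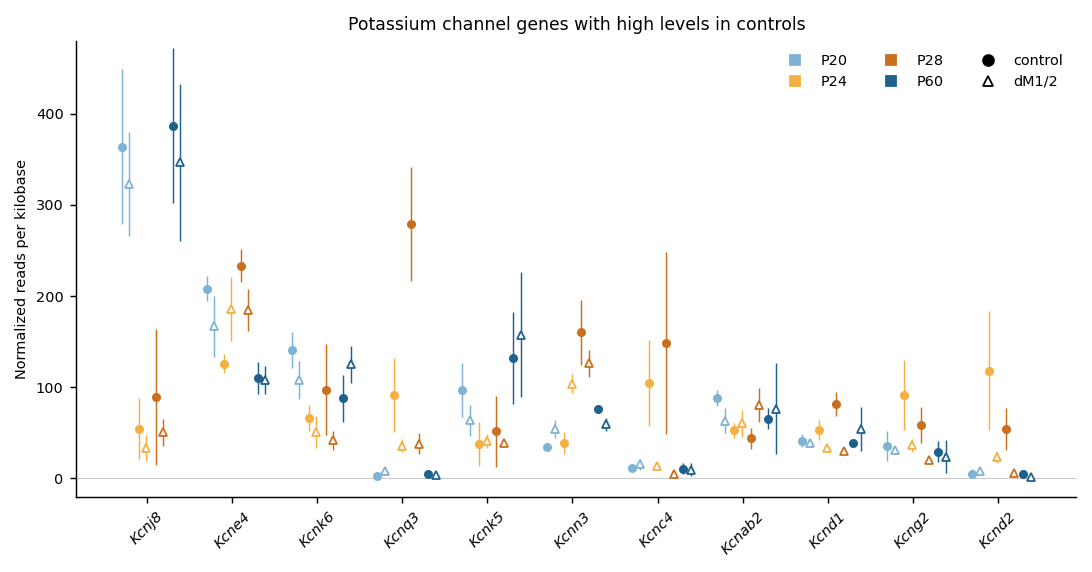
Mean level (normalized reads per kilobase, linear axis) of 11 potassium channel genes with high levels in controls, by age (colour) and genotype (filled circles, control; open triangles, dM1/2); bars are the SD of 3 libraries. Kcnj8 led at P20 and P60, while Kcnq3, Kcnc4 and Kcnd2 had their high control levels at P24 and P28.

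Kcnj8, the pore of the ATP-sensitive channel of vessel-wall cells, had the highest level in every telogen library. It had 364 ± 84.8 normalized reads per kilobase (SD, n = 3) in P20 controls and 387 ± 85.1 in P60 controls, against 54.5 ± 33.4 at P24 and 89.5 ± 74.7 at P28. It took 18.2% to 28.1% of the summed level of all members in the P20 controls and 24.4% to 30.0% in the P60 controls. The P28 controls were far apart, with 252, 405 and 26.9 normalized reads, and the lowest of them was control 3. Markers of smooth muscle and pericytes moved alike over these 3 libraries and between the stages, but not within the telogen controls. Rgs5 had 1238, 2975 and 314 in the 3 P28 controls. The 6 genes of that list summed to between 12710 and 17265 in P20 controls and 14674 and 16240.4 in P60 controls. In P24 controls they summed to between 5306 and 12023, and in P28 controls to between 3875 and 10845. In P20 controls 1 to 3 Kcnj8 took 18.2%, 28.1% and 25.2% of the summed level. That list ran the other way there, with 17265, 12710 and 15798. The other-fibroblast list ran in the order of Kcnj8, with 82102, 125566 and 108217 at P20 and 59409, 93852 and 22491 at P28. The part of these cells in the level of Kcnj8 was not tested. Kcne4, an accessory subunit that inhibits several voltage-gated channels, came second at P20 with 208 ± 13.4 and at P28 with 233 ± 18 per kilobase. Kcnq3, a subunit of the neuronal M-current, had the first place in 2 of the 3 P28 controls. Its control level per kilobase was 91.5 ± 41 at P24 and 279 ± 62.5 at P28, against 2.68 ± 0.447 and 4.68 ± 1.96 in the first and the second telogen. The levels of Kcnq3 and Kcne4 at P28 did not differ beyond their SD.

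Across the 4 ages, 33 of the 50 members tested varied in controls (limma F test, adjusted p under 0.05), beside 49% of all genes tested. In 9 of these 50 members every one of the 6 anagen controls lay above every one of the 6 telogen controls, against 8.45% of all genes, among them Kcna2, Kcnc2, Kcnc4, Kcnd2, Kcnf1, Kcnh1, Kcnq3 and Kcnv1. In 5 the anagen controls lay below, against 7.05% of all genes, namely Kcnj8, Kcnj15, Kcnk2, Kcnk3 and Kcns3. The first set holds voltage-gated and silent subunits alone, and the second set holds inward rectifiers, leak channels and 1 silent subunit. Kcnc2, a fast delayed rectifier, had 16.1, 21.6 and 22.9 normalized reads at P20 and 14.7, 14.3 and 25.4 at P60, against 90.9, 170.2 and 108 at P24 and 111, 94.8 and 204 at P28 (adjusted p = 0.000237). Kcnk2, a stretch-sensitive leak channel, ran the other way, with 219.6, 176 and 158 at P20 and 239, 367 and 291 at P60, against 56.5, 41.7 and 29 at P24 and 33.5, 145 and 9.1 at P28 (adjusted p = 0.0102). Dpt, a fibroblast marker, also had its lowest control value in P28 control 3, with 11034, 18686 and 1083 in the 3 P28 controls. Sex, sequencing depth and stage change together between these ages and cannot be told apart.

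In anagen, many voltage-gated members changed in dM1/2 in both directions, while in telogen nearly none passed the test. At P24, 24 of 54 members tested were called, 14 higher and 10 lower (limma on log2(normalized reads + 1), Benjamini-Hochberg over all genes, adjusted p under 0.05), beside 26.6% of all genes tested, 14.8% higher and 11.8% lower. At P28, 32 of 57 were called, 19 higher and 13 lower, beside 35.5% of all genes, 20% higher and 15.6% lower. At P20, 1 of 47 was called, beside 0.433% of all genes, 0.354% higher and 0.0795% lower, and at P60 none of 48, beside 0% of all genes. The median log2 fold change of the members tested was -0.0308 at P24 and -0.0503 at P28, close to that of all genes at -0.0133 and 0.00378. Of the called members, 6 at P24 and 15 at P28 had a mean under 10 normalized reads in the lower group and passed the filter through the higher one, so that the share of members called is not a measure of the 92. With a mean of at least 10 in both groups, 18 of 46 members were called at P24 and 17 of 40 at P28. The share of all genes called under this restriction was not counted, so that 26.6% and 35.5% are not the background of these counts. Leaving out 1 library at a time gave 16 (without control 2 or dM1/2 1) to 26 calls (without control 3) at P24 and 22 (without dM1/2 2) to 34 calls at P28, the latter without control 2 or without control 3. Of the calls, 13 at P24 and 22 at P28 were made in every one of these 6 fits.

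**Figure D2:**
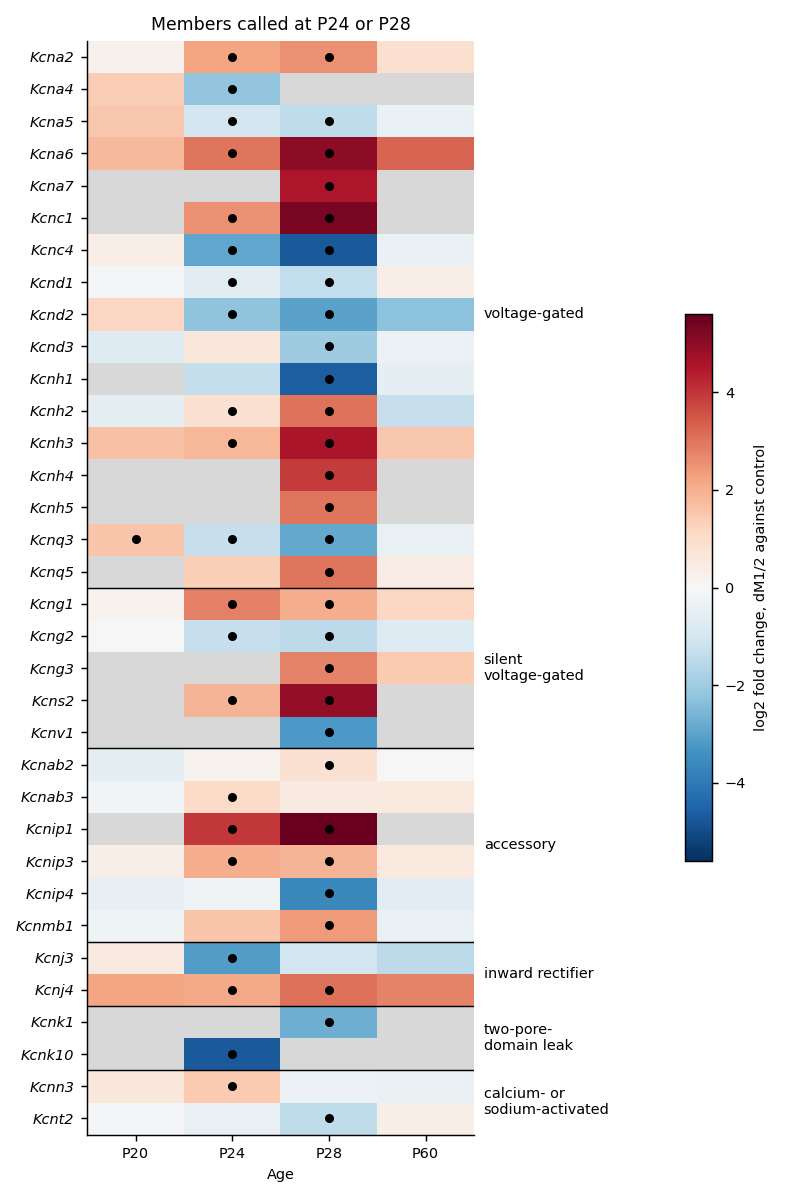
Log2 fold change of dM1/2 against control (colour, on the log2(normalized reads + 1) scale) at the 4 ages for 34 of the members called at P24 or P28, grouped by class; black dots mark an adjusted p under 0.05 (limma) and grey cells were not tested. Calls gather at P24 and P28, and no member was called in opposite directions at these ages.

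At both anagen ages 12 members were higher in dM1/2 (among them Kcna2, Kcna6, Kcnc1, Kcng1, Kcnh2, Kcnh3, Kcnip1, Kcnip3, Kcnj4 and Kcns2) and 7 were lower (among them Kcna5, Kcnc4, Kcnd1, Kcnd2, Kcng2 and Kcnq3). The share of all genes called in the same direction at both ages was not counted. By class, 19 of the 23 voltage-gated members tested at P28 were called, 11 higher and 8 lower, beside 35.5% of all genes, 20% higher and 15.6% lower. At P24 14 of 21 were called, 7 in each direction, beside 26.6% of all genes, 14.8% higher and 11.8% lower. Of the two-pore-domain leak channels 1 of 5 was called at each of these ages, lower in both cases. Inward rectifiers had 2 calls of 5 at P24 and 1 of 4 at P28. With 4 or 5 members tested, these 2 classes are too small to set apart from the shares of all genes. Kcnj8, Kcne4, Kcnk5 and Kcnk6, all among the highest levels in controls, were not called at P24 or P28.

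The Kcnc genes encode Shaw-related channels that repolarise neurons fast. In dM1/2 anagen, Kcnc1 rose and Kcnc4 fell. Kcnc1 (chromosome 7 of GRCm38) had 1.55, 4.02 and 10.7 normalized reads in P24 controls and 29.1, 29.7 and 32.8 in dM1/2. At P28 it had 3.04, 1.92 and 1.9 in controls and 129.6, 136 and 118 in dM1/2. The groups did not overlap at either age, and the log2 fold change was 2.57 ± 0.60 (SE, adjusted p = 0.0183) at P24 and 5.31 ± 0.32 (adjusted p = 0.000214) at P28. The P24 call was lost without control 2 or without any 1 of the dM1/2 libraries (adjusted p up to 0.065), whereas the P28 call was kept in all 6 fits.

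Kcnc4 (chromosome 3) went the other way. It had 337, 576 and 241 normalized reads in P24 controls and 38.9, 65.9 and 42.3 in dM1/2, and 473, 221 and 940.1 in P28 controls against 13.2, 19.3 and 18.5 in dM1/2. Every control lay above every mutant at both ages, though the P28 controls differed more than 4-fold among themselves, with control 3 the highest and control 2 the lowest, in the order of Corin. The summed DP markers had this order too, with 291396, 158900 and 460882 in P28 controls 1 to 3. So did every other member called lower at P28 whose P28 library values are given in the text. Among those called lower without such values are Kcng2 and Kcnt2, and the call of Kcnt2 was kept only without control 3. The order is thus not shown for every member called lower. What this shared order reflects was not tested. The log2 fold change was -2.89 ± 0.35 at P24 (adjusted p = 0.00209) and -4.70 ± 0.50 at P28 (adjusted p = 0.000952), and between -5.23 and -4.19 at P28 when a library was left out. Kcnc2 was not called (adjusted p = 0.417 at P24 and 0.562 at P28).

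**Figure D3:**
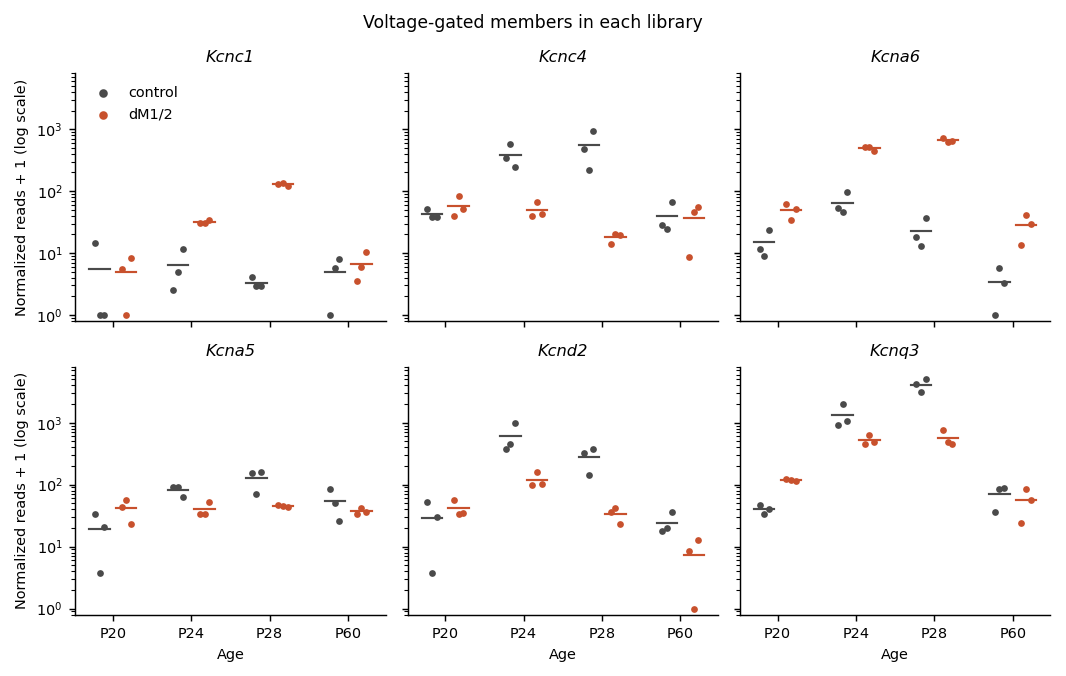
Normalized reads plus 1 (log axis) of 6 voltage-gated members in each of the 24 libraries by age; points are libraries (3 per group), horizontal lines the group means, grey control and orange dM1/2. At P28 Kcnc1 and Kcna6 lay higher in every dM1/2 library than in any control, and Kcnc4, Kcna5, Kcnd2 and Kcnq3 lower. In telogen Kcnq3 at P20 was the only one that passed the test, although Kcna6 at P20 and P60 and Kcnd2 at P60 also had groups that did not overlap.

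The Kcna genes encode Shaker-related channels. Kcna6 and Kcna5 lie 172.9 kb apart on chromosome 6, and Kcna6 rose while Kcna5 fell. Kcna6 had 52.2, 45.2 and 96.1 normalized reads in P24 controls and 506, 508 and 449 in dM1/2, and at P28 17, 12.2 and 36 in controls and 730.5, 614 and 636 in dM1/2. The dM1/2 libraries lay far above the controls, by a log2 fold change of 2.98 ± 0.28 (adjusted p = 0.0013) and 5.0 ± 0.38 (adjusted p = 0.000344). Exons of Kcna6 overlap the antisense gene Gm26673 over 39.6% of their length, and without the strand setting of the counting, which is not given in the sources used here, reads of the pair cannot be told apart. Kcna5, a delayed rectifier of heart and vessel wall, had 151, 69.8 and 157 in P28 controls and 46.1, 43.7 and 42.6 in dM1/2, where every mutant was lower (log2 fold change -1.40 ± 0.34, adjusted p = 0.0188). At P24 its log2 fold change was -1.04 (adjusted p = 0.0348). The calls of Kcna5 rested on few libraries: at P28 it was lost without control 1 or any dM1/2 library (adjusted p up to 0.0739) and at P24 without control 1, control 2, dM1/2 1 or dM1/2 2 (up to 0.124). Of the summed level per kilobase of the Kcna genes, Kcna5 took 79.4 ± 7.02% (SD, n = 3) in P28 controls and 9.39 ± 0.777% in dM1/2, and Kcna6 6.59 ± 2.46% and 67.4 ± 1.58%.

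Kcna2, a delayed rectifier of axons, had 54.8, 30.1 and 29.2 normalized reads in P28 controls and 276, 205 and 183 in dM1/2, with a log2 fold change of 2.55 ± 0.31 (adjusted p = 0.00144), and one of 2.22 ± 0.30 at P24 (adjusted p = 0.00287). Kcna7 was counted in 4 reads in the P28 controls together and in 266 in the dM1/2 libraries. Its values were 0.435, 1.92 and 0 in controls and 40.1, 26.1 and 44.6 in dM1/2, a ratio of 60.3 with a 95% counting interval from 23.3 to 223 that covers counting error only, here and below, and not the spread between mice (log2 fold change 4.52 ± 0.58, adjusted p = 0.00172). Kcna4, an A-type channel, fell at P24 from 20.9, 15.1 and 48.4 to 9.81, 1.9 and 4.4 (log2 fold change -2.23 ± 0.66, adjusted p = 0.0419), and its call was kept only without dM1/2 1 (up to 0.108).

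**Figure D4:**
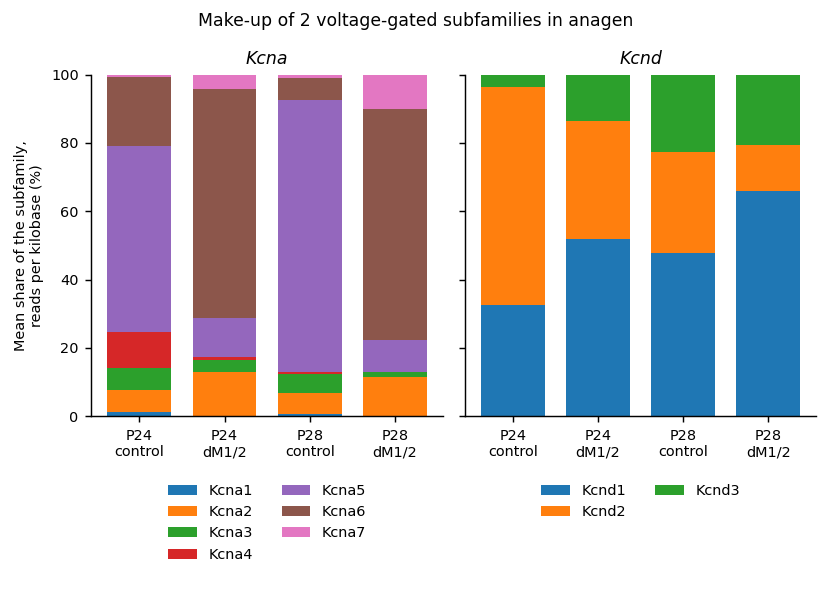
Mean share (%, stacked from 0 to 100) of each gene in the summed normalized reads per kilobase of its subfamily, in the 3 libraries of each anagen group. In Kcna the largest share passed from Kcna5 in controls to Kcna6 in dM1/2 at both ages. In Kcnd it passed from Kcnd2 to Kcnd1 at P24, and Kcnd1 had the largest share in both P28 groups.

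Promoter sequences of 67 of the 92 members were matched by symbol in RefSeq (GRCm38.p6). For 41 of the 67, the bases after the start matched the opening of a GENCODE transcript of the same gene. The 250 bases before the start are printed for Kcnc1, which rose, for Kcnd2, which fell, and for the neighbours Kcna6 and Kcna5, with every CpG in capitals. They are chr7:46396218-46396467 (plus strand), chr6:21215096-21215345 (plus strand), chr6:126740675-126740924 (minus strand) and chr6:126535556-126535805 (minus strand), each read 5′ to 3′ on the strand of its gene. None overlaps an exon of its own gene in GENCODE, and the window of Kcna6 overlaps an exon of Gm26673 on the other strand.
Kcnc1: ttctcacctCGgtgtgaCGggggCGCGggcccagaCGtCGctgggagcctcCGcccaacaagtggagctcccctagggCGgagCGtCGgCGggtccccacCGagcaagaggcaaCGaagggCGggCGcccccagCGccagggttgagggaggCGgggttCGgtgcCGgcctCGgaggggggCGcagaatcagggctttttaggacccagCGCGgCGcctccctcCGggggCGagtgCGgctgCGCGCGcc
Kcnd2: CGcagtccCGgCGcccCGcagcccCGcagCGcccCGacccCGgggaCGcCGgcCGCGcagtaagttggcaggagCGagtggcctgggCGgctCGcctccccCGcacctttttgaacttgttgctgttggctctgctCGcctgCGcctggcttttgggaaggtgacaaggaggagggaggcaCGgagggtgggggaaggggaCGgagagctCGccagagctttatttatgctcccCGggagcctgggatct
Kcna6: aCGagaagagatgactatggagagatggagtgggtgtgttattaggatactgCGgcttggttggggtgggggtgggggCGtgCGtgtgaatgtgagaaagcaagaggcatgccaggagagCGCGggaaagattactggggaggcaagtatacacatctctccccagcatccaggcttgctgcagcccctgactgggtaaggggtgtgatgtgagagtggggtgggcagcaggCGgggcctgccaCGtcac
Kcna5: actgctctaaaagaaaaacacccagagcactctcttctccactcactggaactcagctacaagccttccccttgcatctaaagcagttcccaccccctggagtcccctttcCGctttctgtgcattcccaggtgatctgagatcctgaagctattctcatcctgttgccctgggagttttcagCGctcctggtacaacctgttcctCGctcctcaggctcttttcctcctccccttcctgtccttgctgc
Kcnc1 held 30 CpGs and Kcnd2, which moved the other way, 22, while Kcna6 held 8 and Kcna5 held 3. Among matched members the count ranged from 4 to 35 (median 14, 7 genes) for those higher at both anagen ages. It ranged from 3 to 22 (median 12, 3 genes) for those lower. The median was 8 over the 67 matched members and 6 over the first listed promoter of all 27025 genes. The motif GGGCGG was sought on both strands and was in 3 of these 7 and 2 of these 3 promoters. It was in 49.3% of the 67 matched member promoters and in 32.9% of all. A match of letters is a description of the window.

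The Kcnq genes encode slowly gating channels, and Kcnq3 fell in dM1/2 anagen. Kcnq3 had 934, 2037 and 1066 normalized reads in P24 controls and 451, 644 and 482 in dM1/2, and at P28 4148, 3173 and 5009 in controls and 749, 488 and 445 in dM1/2. No mutant reached a control at either age. The log2 fold change was -1.28 ± 0.29 (adjusted p = 0.0173) at P24, where the call was lost without dM1/2 1 or without dM1/2 3 (up to 0.0664), and -2.89 ± 0.25 (adjusted p = 0.000495) at P28, where leaving out a library moved it only between -3.11 and -2.73. Of the summed level of all members per library, Kcnq3 took 11.8% to 15.9% in the P28 controls and 1.92% to 3.18% in dM1/2. At P20 the direction was the opposite: Kcnq3 was the single member called, with 45.5, 32.5 and 40.2 in controls and 123, 117 and 113 in dM1/2, all mutants above all controls (log2 fold change 1.57 ± 0.25, adjusted p = 0.0454). That call was kept only without P20 control 1, and its adjusted p reached 0.167 in the other fits.

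Kcnq5, another member of the subfamily, was called at P28 with a log2 fold change of 3.0 (adjusted p = 0.0107), kept in 4 of 6 fits with a library left out and under the filter in 2, and had at most 28.9 normalized reads in a library of that age.

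The Kcnd genes encode the channels of the A-type current. All 3 fell at P28 and 2 of them at P24. Kcnd2 had 376, 456 and 994 normalized reads in P24 controls and 97.8, 158 and 100.4 in dM1/2, and 323, 143 and 372 in P28 controls and 35.4, 40.3 and 22.1 in dM1/2. The groups stayed apart at both ages (log2 fold change -2.25 ± 0.37, adjusted p = 0.00538, and -2.99 ± 0.42, adjusted p = 0.00231). Kcnd1 had 450.2, 354 and 491 in P28 controls and 171, 154 and 160.2 in dM1/2, a change of -1.40 ± 0.17 (adjusted p = 0.00132). Its change at P24 was -0.65 (adjusted p = 0.0383), and that call was kept only without control 3 (up to 0.13). Kcnd3 varied over the 4 ages in controls (adjusted p = 0.000656), with 45.7, 94.4 and 29.8 at P24 and 415, 219 and 549.9 at P28. In P28 dM1/2 it had 96.4, 88.3 and 91.5, below every control of that age (log2 fold change -1.99 ± 0.33, adjusted p = 0.00454).

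The Kcnip genes encode calcium-binding partners of the Kcnd channels, of which Kcnip1 and Kcnip3 rose and Kcnip4 fell. Kcnip1 was counted in 1 read over the 3 P28 controls and in 395 reads over the dM1/2 libraries, with 0, 0.64 and 0 and 40.9, 71.1 and 53.4 normalized reads. This is a ratio of 358 with a 95% counting interval from 63.9 to 14174 (log2 fold change 5.54 ± 0.49, adjusted p = 0.000565). At P24 the values were 1.55, 2.51 and 1.19 in controls and 16, 60.9 and 69.7 in dM1/2 (log2 fold change 3.96 ± 0.65, adjusted p = 0.00518). Kcnip3, which also acts as a transcriptional repressor, rose from 59.2, 62.8 and 105 to 300.2, 281 and 323 at P24 (log2 fold change 2.03 ± 0.24, adjusted p = 0.00205) and by 1.89 ± 0.29 at P28 (adjusted p = 0.00346). Kcnip4 had 438, 286 and 670.5 in P28 controls and 39.2, 52.3 and 20.1 in dM1/2, every mutant below every control (log2 fold change -3.62 ± 0.43, adjusted p = 0.00136). At P24, where controls had 20.5, 36.7 and 6.75, it was not called.

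Of the other accessory members, Kcnab2, a beta subunit of the Kcna channels with a reductase fold, was higher at P28 by 0.87 (adjusted p = 0.0358), and its relative Kcnab3 at P24 by 1.08 (adjusted p = 0.02). Kcnmb1, the beta subunit of large-conductance channels in smooth muscle, was higher at P28 by 2.38 (adjusted p = 0.0233). These 3 calls were lost without single libraries: Kcnab2 without control 1, dM1/2 2 or dM1/2 3 (up to 0.126), Kcnab3 without control 1, control 2, dM1/2 1 or dM1/2 2 (up to 0.0748), and Kcnmb1 without control 1 or any dM1/2 library (up to 0.0806). Kcne4 had 329.6, 366 and 309 normalized reads in P24 controls and 571, 519 and 391 in dM1/2, with no overlap, but missed the threshold narrowly (log2 fold change 0.55 ± 0.17, adjusted p = 0.05).

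The Kcnh genes encode the ether-a-go-go channels. Kcnh2, the repolarising channel of the heart, rose from 37, 12.8 and 30.7 normalized reads in P28 controls to 241, 194 and 198 in dM1/2 (log2 fold change 3.05 ± 0.40, adjusted p = 0.00182). At P24 the change was 0.87 (adjusted p = 0.0373) and was called in no leave-one-out fit but that without control 3 (up to 0.123). Kcnh3 had 3.04, 5.12 and 0 in P28 controls and 49, 113 and 58.6 in dM1/2, with a log2 fold change of 4.58 ± 0.74 (adjusted p = 0.0042), and one of 1.84 at P24 (adjusted p = 0.0112, and 0.0535 without dM1/2 1). Kcnh1 was the opposite case. It had 275, 99.3 and 520.3 in P28 controls, with control 3 highest and control 2 lowest, and 11.5, 5.57 and 10.8 in dM1/2 (log2 fold change -4.62 ± 0.61, adjusted p = 0.00192). Kcnh4 was counted in 4 reads in the P28 controls and 168 in dM1/2, with 22.2, 28.3 and 20.1 normalized reads in the latter, a ratio of 38.1 with a 95% counting interval from 14.6 to 141 (adjusted p = 0.00239). Kcnh5 was also called higher at P28 (log2 fold change 2.99, adjusted p = 0.0312), which was lost without control 1 or dM1/2 1 (up to 0.0952) and under the filter in 1 of 6 fits with a library left out.

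Among the silent subunits, which assemble with the delayed rectifiers of the Kcnb genes, Kcns2 and Kcng1 rose and Kcng2 and Kcnv1 fell. Kcns2 had 16.2, 10.5 and 16.3 normalized reads in P24 controls and 48, 57.5 and 59.5 in dM1/2, and 14.8, 8.97 and 0 in P28 controls and 128, 165 and 208 in dM1/2. It had no read in any of the 6 telogen controls. The log2 fold change was 1.89 ± 0.31 (adjusted p = 0.0052) and 4.93 ± 0.98 (adjusted p = 0.00904), the latter between 3.71 and 5.70 when a library was left out. Kcng1 went from 40.6, 77.8 and 51.6 to 231, 456 and 597 at P24 (log2 fold change 2.84 ± 0.38, adjusted p = 0.00289) and rose by 2.02 ± 0.29 at P28 (adjusted p = 0.00246). Kcng2 had 190.0, 227 and 405 in P24 controls and 130.5, 89.1 and 105 in dM1/2, with every mutant lower. Its change was -1.27 (adjusted p = 0.0188, lost without dM1/2 2 or dM1/2 3, up to 0.0637) and -1.48 at P28 (adjusted p = 0.00847). Kcnv1 fell at P28 from 25.2, 6.4 and 64.5 to 2.13, 0.857 and 1.61 (log2 fold change -3.24 ± 0.84, adjusted p = 0.0232), a call kept in 1 of 6 fits with a library left out, lost without control 1 or any dM1/2 library (up to 0.0818) and under the filter in 1. Kcng3 was also called higher at P28 (log2 fold change 2.79, adjusted p = 0.0318), and in 3 of 6 fits with a library left out: it was lost without dM1/2 3 (up to 0.0634) and fell under the filter in 2 others.

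Of 15 inward rectifiers, 5 were tested at P24 and 4 at P28. Kcnj4, a strong inward rectifier, had 11.3, 3.2 and 3.79 normalized reads in P28 controls and 63.1, 63 and 36.5 in dM1/2 (log2 fold change 3.09 ± 0.52, adjusted p = 0.00487). At P24 its change was 2.11 (adjusted p = 0.0158), lost without control 2, dM1/2 1 or dM1/2 3 (up to 0.0615). Kcnj3, a channel gated by G proteins, had 191, 139.6 and 587 in P24 controls, control 3 highest, and 53.8, 31.6 and 12.9 in dM1/2 (log2 fold change -3.11 ± 0.64, adjusted p = 0.0121). Exons of Kcnj3 overlap Gm26794 on the other strand over 31.1% of their length. Kcnj8 was not called at any age. It had 234, 112 and 69.9 in P24 controls and 116, 44.6 and 95.4 in dM1/2, which overlapped (log2 fold change -0.63 ± 0.50, adjusted p = 0.394), and the change was -0.18 ± 0.94 at P28 (adjusted p = 0.903), where the spread of the controls left little precision. Without P28 control 3 it was -1.35 and called (adjusted p = 0.0106).

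The ATP-sensitive channel joins a Kcnj8 or Kcnj11 pore with a sulfonylurea receptor, Abcc9 or Abcc8. Abcc9, the usual partner of Kcnj8, had 458, 668 and 55.4 normalized reads in P28 controls and 366, 420.4 and 334 in dM1/2 and was not called at any age (adjusted p = 0.296 at P24 and 0.674 at P28). Like Kcnj8, it had its lowest P28 control value in control 3 and its highest control values in telogen. Abcc8, known from insulin-secreting cells, rose from 3.87, 7.03 and 8.73 to 69.8, 57.9 and 48.7 at P24 (log2 fold change 3.03 ± 0.39, adjusted p = 0.00247). At P28 it rose from 6.96, 7.04 and 0.758 to 90.8, 87 and 88.7 (log2 fold change 4.22 ± 0.63, adjusted p = 0.00302). Kcnj11, the usual pore of Abcc8, had at most 4.71 normalized reads in any library and was not tested.

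Of 14 two-pore-domain channels, 5 were tested at each anagen age. Kcnk10, a leak channel opened by stretch and lipids, had most of its reads in the P24 controls, with 111, 101 and 56.8 normalized reads, against 0.363, 6.09 and 3.04 in dM1/2 (log2 fold change -4.68 ± 0.64, adjusted p = 0.00301). Kcnk1 fell at P28 from 20.0, 9.61 and 37.9 to 0.426, 3 and 4.01 (log2 fold change -2.75, adjusted p = 0.0256), a call kept in 2 of 6 fits, lost without control 1, dM1/2 1 or dM1/2 2 (up to 0.0837) and under the filter in 1. Kcnk6 had 392, 615 and 201 in P28 controls and 127, 182 and 213 in dM1/2, overlapping groups that gave a log2 fold change of -1.10 ± 0.41 (adjusted p = 0.08), and -1.52 without control 3, where it was called (adjusted p = 0.00425). Kcnk5, a leak channel sensitive to pH, gave 0.04 ± 0.71 at P28 (adjusted p = 0.975) and 0.30 ± 0.43 at P24 (adjusted p = 0.65).

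Kcnn3, a small-conductance calcium-activated channel, was the 1 member of 56 tested whose change from P24 to P28 differed between the genotypes, beside 0.707% of all genes, 0.453% with a positive and 0.255% with a negative difference. It had 399, 536 and 285 normalized reads in P24 controls and 1325, 1636 and 2062 in P28 controls, against 964, 1183 and 1117 and 1459, 1339 and 1159 in dM1/2. At P24 every mutant lay above every control (log2 fold change 1.46 ± 0.23, adjusted p = 0.0043), and at P28 the groups overlapped (log2 fold change -0.33, adjusted p = 0.215). The difference of the changes was -1.79 ± 0.31 (adjusted p = 0.0379). It was lost in 8 of 12 leave-one-out fits, that is, without P24 control 1 or 3 or any dM1/2 library of either age (adjusted p up to 0.124). Kcnt2, a sodium-activated channel, was lower at P28 (log2 fold change -1.44, adjusted p = 0.0485), a call that only the fit without control 3 kept (up to 0.147).

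From P24 to P28 few members changed within a genotype. In controls 4 of 50 were called, 3 higher and 1 lower, beside 1.46% of all genes, 0.723% higher and 0.738% lower, and none was called in any of the 6 fits with a library left out (adjusted p up to 0.144). Kcnip4 rose by 4.57 ± 0.61 (adjusted p = 0.0329), Kcnn3 by 2.06 ± 0.27 (adjusted p = 0.0309) and Kcne4 by 0.89 ± 0.13 (adjusted p = 0.0384). Kcnk10 changed by -3.15 ± 0.50 (adjusted p = 0.045), from 111, 101 and 56.8 to 9.57, 4.48 and 15.2 normalized reads. In dM1/2, 3 of 57 were called, 2 higher and 1 lower, beside 2.67% of all genes, 1.69% higher and 0.983% lower. Kcnc1 rose by 2.03 ± 0.20 (adjusted p = 0.00407), Kcns2 by 1.56 ± 0.22 (adjusted p = 0.0134), and Kcnd2 changed by -1.84 ± 0.30 (adjusted p = 0.0196). Without P28 dM1/2 2 Kcnc1 alone of these was called; the call of Kcnd2 was also lost without P24 dM1/2 1 or P28 dM1/2 3 (up to 0.0637).

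In telogen some members of the anagen sets were apart between the groups without passing the test. The share of all genes whose groups did not overlap at P20 or P60 was not counted. At P60 none of 48 members was called with limma, 5 had an unadjusted p under 0.05 (3.74% of all genes), and edgeR and DESeq2 called none. At P20, 12 of 47 had an unadjusted p under 0.05, beside 19.8% of all genes. Kcna6 was apart at P20, every mutant above every control, with 10.7, 8.12 and 22.9 in controls and 61.4, 33.2 and 49.9 in dM1/2 (log2 fold change 1.80 ± 0.49, adjusted p = 0.105). It lay in the direction of its anagen change. At P60 Kcna6 had 0, 4.77 and 2.31 normalized reads in controls and 12.6, 40.2 and 28.2 in dM1/2, which did not overlap but rested on 3 reads in controls and 33 in dM1/2, a ratio of 12 with a 95% counting interval from 3.76 to 61.2 (adjusted p = 0.986). Kcnc4 had 27.3, 23.8 and 64.6 in P60 controls and 7.57, 45.3 and 54.1 in dM1/2, with overlap (adjusted p = 0.995). When the mean dM1/2 effect in telogen was subtracted from that in anagen over all 24 libraries, 18 of 54 members were called, 12 higher and 6 lower, beside 30.2% of all genes, 16.1% higher and 14.1% lower. The differences ran from -3.80 ± 0.59 for Kcnc4 (adjusted p = 0.000125) and -2.67 ± 0.39 for Kcnq3 (adjusted p = 8.22e-05) to 3.28 ± 0.96 for Kcnc1 (adjusted p = 0.0143) and 5.56 ± 0.92 for Kcnip1 (adjusted p = 0.0002). Depth and sex change with stage here as well.

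Between the first and the second telogen in controls, 6 of 42 members were called, 2 higher and 4 lower at P60, beside 12.6% of all genes, 6.12% higher and 6.45% lower. Kcnn3 had 415, 349 and 318 normalized reads at P20 and 764, 837 and 779 at P60 (log2 fold change 1.14 ± 0.15, adjusted p = 0.00186), and Kcne4 had 554, 517 and 588 and 344, 255 and 277 (-0.93 ± 0.16, adjusted p = 0.00759). These 2 calls were made in every leave-one-out fit. The calls of Kcng1 (log2 fold change -1.79), Kcnab3 (-1.5), Kcnn1 (-0.90) and Kcnt2 (1.16) were not, and the count fell to 2 without P20 control 3 or P60 control 2 and to 3 without P60 control 3.

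Genes that work with these channels were read from 3 lists. Of 17 channel partners, 13 were tested at each anagen age, and 4 were higher and 3 lower at P24, beside 14.8% and 11.8% of all genes, and 4 each way at P28, beside 20% and 15.6%. The Hcn genes encode pacemaker channels that carry sodium and potassium on hyperpolarisation. Hcn2 rose from 82.2, 37.1 and 97.5 to 629, 691 and 746 at P28 (log2 fold change 3.34 ± 0.35, adjusted p = 0.000893), and Hcn3 by 2.56 ± 0.26 (adjusted p = 0.000793). Hcn4 rose by 3.65 ± 0.94 (adjusted p = 0.0231), a call lost without any 1 of the P28 dM1/2 libraries (up to 0.0882). Lrrc55, an accessory subunit of large-conductance channels, changed by -2.19 at P24 (adjusted p = 0.029, lost without control 1, control 2 or dM1/2 2, up to 0.0982).

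Of 24 potassium pump and cotransporter genes, 4 of 18 tested were higher and 3 lower at P24 (all genes, 14.8% and 11.8%), and 5 of 17 higher and 3 lower at P28 (all genes, 20% and 15.6%). Slc12a1, a sodium, potassium and chloride cotransporter known from the kidney, had 27, 25 and 38.7 normalized reads in P28 controls and 1504, 2519 and 859 in dM1/2 (log2 fold change 5.6 ± 0.39, adjusted p = 0.000306). Its relative Slc12a2, found in most cells, fell at both ages (-1.54 ± 0.11 at P24, adjusted p = 0.000682, and -1.49 ± 0.16 at P28, adjusted p = 0.000964). Atp1b1, the beta subunit of the sodium pump, had 83.1, 93.5 and 152 and 2147, 2224 and 2185 at P28 (log2 fold change 4.36 ± 0.23, adjusted p = 0.000177). It was also called at P20, with 131, 152 and 169 and 491, 480.2 and 523 (log2 fold change 1.73, adjusted p = 0.00448), which was lost without dM1/2 3 (0.0508). Of the pump regulators, Fxyd1 changed by -1.42 ± 0.31 at P28 (adjusted p = 0.012) and Fxyd6 by 1.42 ± 0.44 (adjusted p = 0.0441), the latter called only in 2 of 6 fits with a library left out (up to 0.143).

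Of 40 voltage-gated sodium and calcium channel genes, 39 were matched by symbol, and 9 of 27 tested were higher and 2 lower at P24, against 14.8% and 11.8% of all genes, and 8 of 28 higher and 6 lower at P28, against 20% and 15.6%. Cacna1b, the pore of the N-type calcium channel, had 83.1, 35.9 and 117 normalized reads in P28 controls and 1993, 1291 and 1401 in dM1/2 (log2 fold change 4.42 ± 0.42, adjusted p = 0.000691). Scn3b, a sodium channel beta subunit, rose by 2.59 ± 0.39 (adjusted p = 0.00304) and Cacna1e, a calcium channel pore, by 2.38 ± 0.28 (adjusted p = 0.00124) at P28. Scn4b, another beta subunit, had 4958, 2274 and 6712 in P28 controls and 1049, 932 and 1149 in dM1/2 (log2 fold change -2.02 ± 0.37, adjusted p = 0.00686). Cacng5 changed by -2.87 ± 0.59 at P24 (adjusted p = 0.0115).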

How the data were processed

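Sorted DP cells of 24 mice, labelled as biological replicates, gave 1 library of 50-base single-end reads each from RNA depleted of ribosomal RNA. Per the labels and methods, the authors used Trimmomatic for trimming, TopHat 2 for alignment (mm10), HTSeq with Ensembl GRCm38 genes for counting and DESeq2 for normalization; the strand setting is not given in the sources used here. The deposited signal is gene counts divided by size factors, called normalized reads; 100.0% of values gave whole reads (within 0.01), which were recovered for the count tests. The deposited log2 fold changes, test scores and p-values come from the authors' own comparisons with DESeq2 and were not used.

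The test was limma 3.58.1 (R 4.3.3) with trend on log2(normalized reads + 1), two-sided, for genes that averaged 10 or more normalized reads in the fit, with Benjamini-Hochberg adjustment over all genes and a threshold of 0.05. A fold change on this scale understates the change of low genes. Each age was fitted on its 6 libraries, and comparisons that share control libraries are not independent. Alternatives were a pseudocount of 10, no filter, the replicate number as a block, log2-CPM values scaled by TMM in limma (prior count 2), edgeR 4.0.16, DESeq2 1.42.0, 1 fit over all 24 libraries, and leaving out each library. Scripts were tested on simulated counts of the P20 and P28 libraries, with 100 genes changed 2-fold and 100 changed 4-fold. At P28 the test recovered 17% of the 2-fold and 74% of the 4-fold changes, and at P20 73% and 82%. False calls were 8.08% of the calls at P28 and 8.28% at P20. Exon lengths and positions came from GENCODE M21 (GRCm38). Genes named in full were the largest rises and falls, up to 8 each, among members called at an age whose groups did not overlap, members called at P20 or in the changes from P24 to P28, the 12 highest levels in controls, the ATP-sensitive channel, and up to 6 genes per partner list called at 2 or more ages; the remaining ones were chosen after their values were seen. Members and lists were chosen with earlier results of these data known. Some genes are counted but not reported here by name.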

Additional observations from a re-analysis of the deposited data

Results flagged for a closer look

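The change from P24 to P28 differed between the genotypes for 1 of 56 members tested, Kcnn3, beside 0.707% of all genes tested. The difference, dM1/2 minus control, was -1.79 on the log2(normalized reads + 1) scale (limma, adjusted p = 0.0379), and 4 of 12 fits with a library left out kept the call.

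For 18 of 54 members tested the effect of dM1/2 differed between the anagen and the telogen ages (limma over all 24 libraries, each adjusted p under 0.05). That is 33.3% of the members tested, near the 30.2% of all genes tested. The difference, anagen effect minus telogen effect, was, among them, -3.80 for Kcnc4, -3.31 for Kcnk10, -2.67 for Kcnq3, -1.77 for Kcna5 and -1.18 for Kcnd1. It was 5.56 for Kcnip1, 3.28 for Kcnc1, 2.88 for Kcnh2, 2.51 for Kcns2 (-1.27 with edgeR, adjusted p = 0.687), 2.28 for Kcnmb1, 1.83 for Kcna2, 1.76 for Kcng1, 1.63 for Kcnh3, 1.51 for Kcnip3 and 1.46 for Kcna6. In all 24 fits with a library left out 12 of the 18 were called, and among the others were Kcna5, Kcna6, Kcnh3, Kcnk10 and Kcns2. Depth, sex and stage cannot be told apart in this comparison.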

How the results depend on the processing

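At P20 the count of 1 called member became 0 without the filter and in 1 fit over all 24 libraries, and 4 with DESeq2; at P60 the count of 0 became 1 in the 24-library fit. For P28 against P24 in controls the count of 4 became 12 with DESeq2 and 8 in the 24-library fit, and in dM1/2 the count of 3 became 9 with DESeq2 and 0 in the 24-library fit. For the difference of these changes the count of 1 became 4 with a pseudocount of 10, 10 with DESeq2 and 2 in the 24-library fit. The causes were not tested. With edgeR the anagen minus telogen difference of Kcns2 turned from 2.51 to -1.27 (adjusted p = 0.687), where it had no read in the telogen controls. The calls of members, in every comparison but that over the 4 ages of controls, were followed through all alternatives. Of these values, 1203 kept their direction and side of the threshold, 248 kept the direction but lost the call and 1 reversed. Members that were not called are outside this tally.

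With a library left out, the counts ranged from 0 to 6 at P20, where 6 came without control 1, from 16 to 26 at P24 and from 22 to 34 at P28, with 0 in every fit at P60. They ranged from 0 to 0 for P28 against P24 in controls, 1 to 3 in dM1/2, where 1 came without P28 dM1/2 2, 0 to 2 for the difference of these changes, 14 to 19 for anagen minus telogen, 28 to 39 over the ages of controls, and 2 to 6 for P60 against P20 in controls.

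At P20 every library correlated best with its own replicate number, a hint of pairing from the data, and at the other ages not every library did. Deviations of libraries with the same number correlated at 0.231, 0.082 and 0.116 for P20 and at -0.179, 0.043 and -0.401 for P24. They correlated at -0.152, 0.027 and -0.229 for P28 and at 0.344, 0.024 and 0.171 for P60. With the replicate number as a block, the calls over all genes went from 60 to 439 at P20. They went from 3735 to 2366 at P24 and from 5018 to 3713 at P28. With the replicate number as a block 19 members were called at P24 and 30 at P28, with 3 at P20, 0 at P60, 0 for P28 against P24 in controls and for the difference of the changes, 3 for P60 against P20 in controls, 19 for anagen minus telogen and 35 over the ages. Depth limits the telogen ages most. The cut of 10 normalized reads was the same at every age. In telogen libraries 1 read was worth 1.85 to 2.87 normalized reads, against 0.338 to 0.640 in anagen. Telogen tests therefore took in members with fewer reads, which limits what the few calls there can show.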
